A study of Mus musculus with 3 samples.

Results

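Cycling immature thymocytes were selected from a single-cell library of thymus cultures by their own transcript counts. A cell belonged to them when it held at least 3 unique molecular identifiers (UMIs, 1 per captured transcript) of the proliferation genes Mki67 and Top2a together, and at least 2 of the immature thymocyte genes Dntt, Ptcra and Rag1 together. Cells with any UMI of the epithelial gene Epcam or more than 1 of the collagen gene Col1a1 were left out. Among 9349 cells assigned to a culture type, 585 met the rule, and 2618 met its immature part. Another 1863 immature cells held no Mki67 or Top2a UMI and are called resting here, and 170 held 1 or 2 and entered neither group. Since these genes chose the cells, the difference between cycling and resting cells is a description and not a test.

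The cells came from 2 kinds of thymus culture on day 13, both of wild-type C57BL/6J mouse tissue. Both were kept in the same medium, which held FGF7 and serum. The compound thiazovivin was added at the start of culture, as described for the reaggregates. No further treatment is described. Fetal thymus organ culture (FTOC) used intact fetal lobes. Organoid reaggregate FTOC (ORFTOC) used thymic epithelial cells from fetal thymus that had grown as organoids in medium with FGF7. They were reaggregated with fetal thymus cells depleted of EpCAM-positive cells and with mouse embryonic fibroblasts, described only as wild-type. In each pool 2 cultures were mixed before the cells received a hashtag antibody, and both pools were run in 1 droplet lane. Each pool is therefore 1 sample, and no test between pools or between cell groups is given. Intervals in brackets are 95% intervals that cover counting error only. ORFTOC held 323 cycling and 654 resting cells, and FTOC held 262 and 1209. Where values are given in pairs, ORFTOC comes first.

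Thymocytes divide most after a productive rearrangement of the T cell receptor β gene (Trb) has given a β chain, which pairs with the surrogate chain encoded by Ptcra. This step, β selection, is followed by proliferation while the cells pass through an immature CD8 single-positive stage towards the CD4 and CD8 double-positive stage. Daughter cells inherit the same Trb junction, so that the junction marks a clone. They then leave the cycle, switch the recombinase genes Rag1 and Rag2 back on and rearrange the α gene (Tra).

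The most frequent Trb junctions of the cycling cells are printed because cells of 1 clone share them, although a shared junction need not mean 1 clone. They were read from the deposited contigs, from the codon of the conserved cysteine to that of the conserved phenylalanine. Capitals mark bases that matched neither the germline V nor the germline J segment, which are D segment bases and bases added or left by joining.
ORFTOC TRBV30 TRBJ2-5: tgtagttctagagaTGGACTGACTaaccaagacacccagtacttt
ORFTOC TRBV3 TRBJ1-4: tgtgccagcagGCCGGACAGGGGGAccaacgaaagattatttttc
ORFTOC TRBV2 TRBJ2-4: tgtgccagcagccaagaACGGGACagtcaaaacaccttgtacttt
FTOC TRBV12-2+TRBV13-2 TRBJ2-2: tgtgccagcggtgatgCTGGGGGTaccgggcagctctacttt
FTOC TRBV2 TRBJ2-7: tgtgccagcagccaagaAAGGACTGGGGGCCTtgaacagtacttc
FTOC TRBV5 TRBJ1-1: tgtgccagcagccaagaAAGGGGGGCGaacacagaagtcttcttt
Each of the 3 ORFTOC junctions was found in 6 cycling cells. The 3 FTOC junctions were found in 2 cycling cells each, and 12 junctions of that pool shared this number.

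The T lineage genes of the cells matched the thymocyte part of the name, while its immature part rests on the genes of the rule. A Cd3e UMI was found in 98.8% of ORFTOC and 98.5% of FTOC cycling cells, and a Thy1 UMI in every ORFTOC and 98.9% of FTOC cells. Cd3e encodes a chain of the receptor complex and Thy1 a surface protein of thymocytes. Cd8a UMIs were found in 92.0% and 93.5% of the cells. In 2523 cells with at least 3 Epcam UMIs and a median of 13206 UMIs, which should lack these genes, the shares were 10.7% for Cd3e, 12.6% for Thy1, 9.12% for Cd8a and 5.67% for Cd4. The 3 B cell markers and the 3 erythroid markers on the lists were at 0 in both groups and pools. Summed epithelial markers stood at 37.0 and 49.3 UMIs per 1000000 of the group's UMIs (CPM), against 269 and 148 CPM in resting cells. The 8 T lineage markers summed to 5398 and 6591 CPM in cycling cells and to 9007 and 12104 CPM in resting cells. Macrophage and dendritic cell markers summed to 231 and 1109 CPM in cycling cells and to 3293 and 1526 CPM in resting cells, and of these 9 markers Siglech was at 0. The part of such transcripts in the results below was not tested unless values are given.

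Cycling cells were much deeper than resting ones. Their median was 12288 UMIs in ORFTOC (2136 to 45149) and 7731 in FTOC (1112 to 46428), against 1792 and 1679 in resting cells. A gate on UMIs favours deep cells. Gene levels, gene lists and shares of cells with a receptor chain were therefore compared again at 3000 to 15000 UMIs, called matched depth below. That range held 204 and 216 cycling and 118 and 97 resting cells, with medians of 8992 and 7080 against 5095 and 4308 UMIs. Not repeated there were J segment use, clones found in both groups, repeated chains of resting cells, phase scores, and δ or non-productive contigs. At matched depth 12 macrophage genes, the 9 markers with Apoe, Tyrobp and Fcer1g, summed to 115 and 106 CPM in cycling cells and to 2270 and 643 CPM in resting cells. More than 3 UMIs of them were held by 32 of 118 and 12 of 97 resting cells there, against 67 of 654 and 36 of 1209 at all depths. In cycling cells of matched depth it was 11 of 204 and 7 of 216. Of the 8 T lineage markers 0 were at least 2-fold higher or lower in both pools there, with median log2 ratios of -0.18 and -0.24. Cycling cells held 3 to 124 UMIs of Mki67 and Top2a in ORFTOC, with a median of 19, and 3 to 68 in FTOC, with a median of 18. The 15 and 22 immature cells with 2 such UMIs, just outside the rule, carried a median of 62 and 82.5 UMIs of the other cell cycle genes, and the 15 and 15 cells with 3 UMIs, just inside it, carried 142 and 86.

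Cycling cells made up 6.17% (5.53 to 6.85) of the assigned ORFTOC cells and 6.37% (5.64 to 7.16) of the FTOC cells. Among immature cells the share was 31.0% (28.2 to 33.9) in ORFTOC and 16.6% (14.8 to 18.6) in FTOC. At matched depth it was 58.1% (52.8 to 63.3) in ORFTOC and 60.7% (55.4 to 65.8) in FTOC. The 2 pools were thus close at matched depth, but the cut itself shaped these shares. It kept 118 of 654 and 97 of 1209 resting cells, and 204 of 323 and 216 of 262 cycling cells. With at least 1000 genes per cell the shares were 39.9% in ORFTOC and 24.1% in FTOC. The ORFTOC share was also the larger in cells thinned to 1000 UMIs, as given further below. The part of depth in the pool difference was not tested.

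Within the cycling cells, the balance of DNA replication and mitosis genes varied, and many cells held both. The S list (43 genes such as Mcm5 and Rrm2) and the G2 and M list (52 genes such as Cdk1 and Ube2c) were scored without Mki67 and Top2a. S list UMIs outnumbered G2 and M list UMIs in 21.1% (16.7 to 25.9) of ORFTOC and 16.8% (12.5 to 21.9) of FTOC cells, and in 18.6% and 17.9% after every cell was thinned to 1000 UMIs. The S list made up 40 to 60% of the phase UMIs, those of both lists together, in 29.7% and 21.0% of the cells, under 25% in 46.1% and 50.4%, and over 75% in 0 of 585. Mki67 and Top2a are themselves expressed mainly in G2 and M, so the gate bears on these shares. The S list held a median of 64.8 and 67.3 UMIs per 10000 in cycling cells against 11.5 and 10.9 in resting cells. For the G2 and M list the medians were 169 and 230.4 against 21.6 and 22.3.

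**Figure D1:**
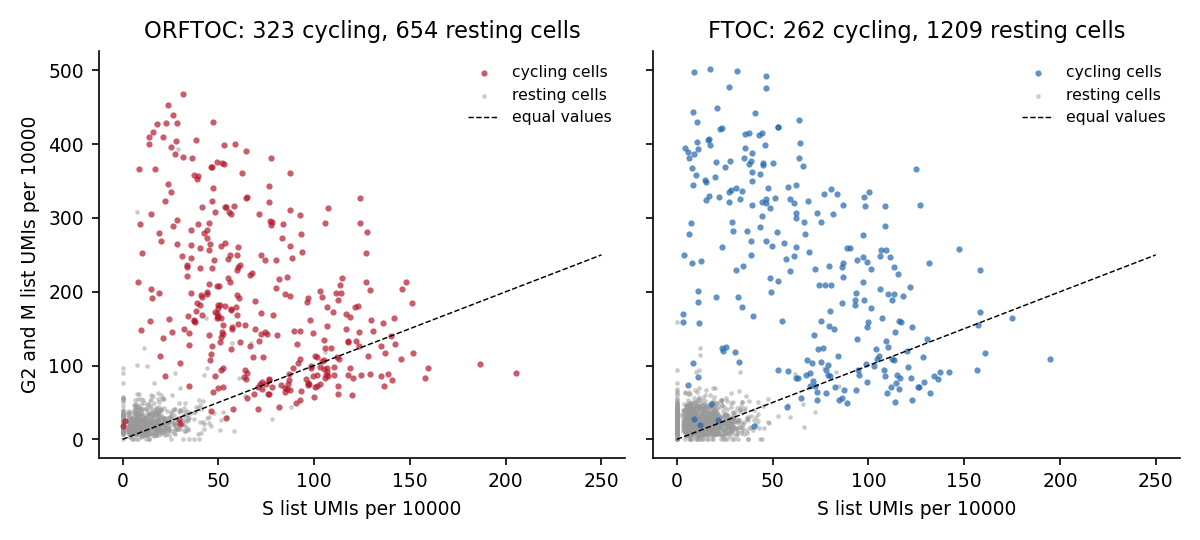
UMIs of the S list (horizontal axis) and of the G2 and M list (vertical axis) per 10000 UMIs, for every cycling and resting cell of the ORFTOC pool and of the FTOC pool. Cycling cells lie up and to the right of resting cells in both pools, with medians of 169 and 230.4 against 21.6 and 22.3 UMIs per 10000 on the vertical axis.

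Cells were also binned by the S list's share of their phase UMIs (0 to 25%, 25 to 50% and 50 to 75%). Mcm5, a subunit of the replicative helicase, was at 132, 247 and 358 CPM across the bins in ORFTOC and at 82.3, 248 and 374 CPM in FTOC. Mcm5 is a member of the S list, so this order follows from the binning. Ccnb1, the mitotic cyclin, went the other way with 372, 151 and 33.8 CPM in ORFTOC and 374, 80.4 and 18.2 CPM in FTOC. Ccnd3, the D-type cyclin of early thymocytes, changed little across the bins, with 1539, 1435 and 1456 CPM in ORFTOC and 1729, 1370 and 1368 CPM in FTOC.

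Some genes of thymocyte identity, which are in neither list, also differed along these bins. Rag1, which encodes the recombinase and was part of the rule, was at 258, 157 and 98.1 CPM in ORFTOC and at 449.7, 255 and 127 CPM in FTOC, lowest where the S share was highest. Rag2, its partner and not part of the rule, stood at 73.6, 44.5 and 30.5 CPM in ORFTOC and at 131, 42.9 and 44.4 CPM in FTOC. Cd8a was at 985, 551 and 423 CPM in ORFTOC and at 1286, 689 and 519 CPM in FTOC. Cd4 was at 75.1, 27.2 and 26.2 CPM in ORFTOC and at 143, 82.5 and 56.6 CPM in FTOC. All 4 were highest in the cells with the largest share of G2 and M transcripts. Ptcra, also part of the rule, was not, at 89.9, 126 and 101 CPM in ORFTOC and at 101, 87.9 and 176 CPM in FTOC. The median depth of the 3 bins was 11774, 13616 and 11779 UMIs in ORFTOC and 6858, 8640 and 8583 UMIs in FTOC. The share of cells with a TRB chain was 89.9%, 91.3% and 94.3% in ORFTOC and 92.4%, 83.3% and 91.3% in FTOC.

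Across all genes, 397 of 3768 tested (10.5%) were at least 2-fold higher in cycling than in resting cells in both pools, and 436 (11.6%) at least 2-fold lower. A gene was tested when it reached 50 CPM in the higher group of each pool. Over all tested genes the median log2 ratio was -0.18 in ORFTOC and -0.20 in FTOC, and scaling by the median ratio gave 447 higher and 331 lower genes. At matched depth, 364 of 3461 genes were higher (10.5%), of which 292 were among the 397, and 200 were lower (5.78%), of which 94 were among the 436. The median log2 ratio was then 0.03 and 0.01. Higher genes were thus mostly shared between both ways of choosing cells, and most of the lower genes were not.

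Replication genes were higher as a group. Of the S list, 33 genes were tested, 30 were higher and 0 lower, with a median log2 ratio of 2.50 and 2.80. At matched depth 30 of 35 were higher, 28 of them the same genes, with medians of 2.23 and 2.11. Mcm5 stood at 219 CPM in ORFTOC cycling and 34.8 CPM in ORFTOC resting cells, and at 199 and 18.8 CPM in FTOC, 6.28-fold and 10.6-fold higher. Rrm2, the regulated subunit of ribonucleotide reductase, stood at 553 and 610.3 CPM in cycling cells and at 12.9 and 10.4 CPM in resting cells. For Rrm2 the log2 ratio at matched depth was 4.98 and 4.39.

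Genes of G2 and mitosis differed most. Of 46 tested genes of that list 42 were higher and 0 lower, with a median log2 ratio of 4.16 and 4.81, and at matched depth 45 of 46 were higher with medians of 3.87 and 3.76. Cdk1, the kinase that drives entry into mitosis, stood at 338 and 355 CPM in cycling cells against 5.89 and 3.99 CPM in resting cells. Its log2 ratio at matched depth was 5.45 and 5.73. Ube2c, which passes ubiquitin to mitotic cyclins, stood at 1113 and 1345 CPM against 23.6 and 13.2 CPM, 47.2-fold and 102-fold higher. After each cell was thinned to 1000 UMIs a Cdk1 UMI was found in 27.6% and 29.8% of cycling cells and in 0.160% and 0.519% of resting cells. Among genes with at least 100 CPM in the higher group, the 8 largest ratios belonged to Esco2, Nusap1, Mxd3, Cdk1, Ncapg, Aurkb, Ube2c and Spc25, most of which encode proteins of chromosome cohesion, condensation and segregation. Esco2 was at 140.2 and 159 CPM in cycling cells and at 1.07 and 0 CPM in resting cells.

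**Figure D2:**
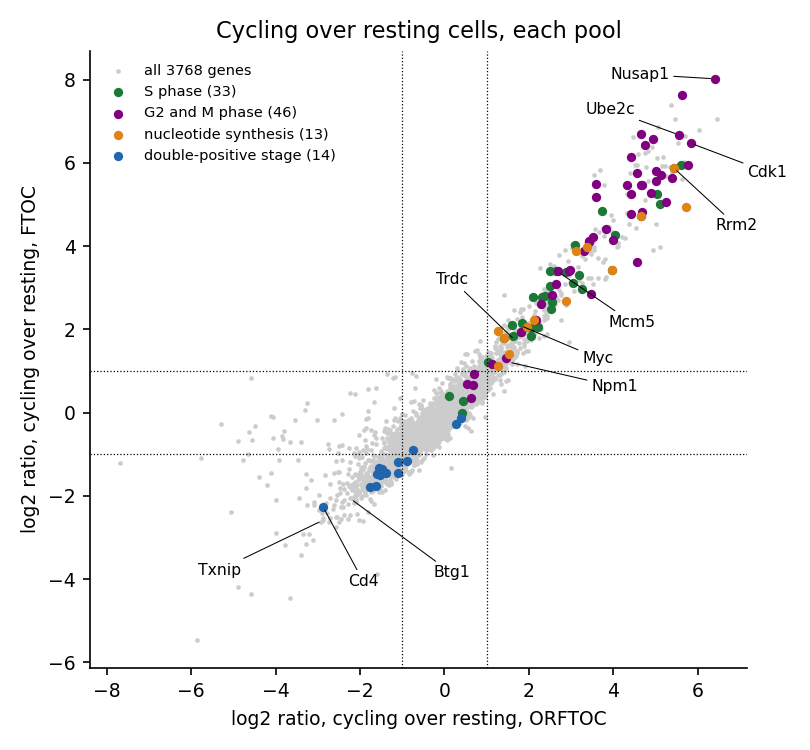
Log2 ratio of cycling over resting cells in ORFTOC (horizontal axis) and in FTOC (vertical axis) for the tested genes, with genes of the S, G2 and M, nucleotide synthesis and double-positive lists coloured and dotted lines at 2-fold. Most genes of the cell cycle lists lie at positive values in both pools, with medians of 4.16 and 4.81 for the G2 and M list.

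The regulators of the cycle did not move as 1 group. Of 8 tested cyclin and cyclin kinase genes 6 were higher, among them Ccna2 (373 and 399 CPM against 9.11 and 2.40 CPM) and Cdk4 (439 and 330.4 CPM against 184 and 141 CPM). Ccnd3 was not among them, at 1486 and 1528 CPM in cycling and 1636 and 2121 CPM in resting cells. At matched depth Ccnd3 stood at 2015 and 1990 CPM against 1107 and 1467 CPM, so that the order of the groups turned. There 6 of 9 genes were higher and Ccnd2 was lower. Cdk4 was not among the 6, with log2 ratios of 0.71 and 0.59. The E2F family and its relatives, which switch on S phase and mitotic genes, had 4 of 5 tested members higher (E2f1, E2f2, E2f8 and Mybl2), and 5 of 6 with Foxm1 at matched depth. E2f1 was at 56.2 and 55.9 CPM against 11.8 and 8.79 CPM.

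Of the 8 tested brakes of the cycle, 1 was higher and 2 were lower. The higher one was Cdkn2c, the D-cyclin kinase inhibitor p18, at 71.9 and 81.7 CPM against 9.11 and 7.99 CPM, with a log2 ratio at matched depth of 4.06 and 4.17. The lower ones were Btg1 and Btg2, which restrain proliferation. Btg1 was at 173 and 278 CPM against 822 and 1157 CPM, and at matched depth at 265 and 342 CPM against 605 and 769 CPM. At matched depth Cdkn2d and Rbl1 were also higher and Btg2 was no longer 2-fold lower. Cdkn1b, the inhibitor p27, stood at 92.7 and 127 CPM against 168 and 221 CPM and did not reach 2-fold in both pools, with log2 ratios of -0.08 and -0.09 at matched depth.

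Among the 8 smallest ratios of genes with at least 100 CPM in the higher group were Txnip and Ypel3. Txnip, which binds thioredoxin and limits glucose uptake, was at 25.3 and 47.3 CPM in cycling cells and at 186 and 286 CPM in resting cells. Its log2 ratio at matched depth was -1.84 and -1.25. Ypel3 was at 52.5 and 96.2 CPM against 415 and 490.4 CPM, and at -2.11 and -1.76 at matched depth. The others were Gm15340, Vamp1, Tiparp, Gramd3, Arl5c and Lpar6, of which Gm15340 had log2 ratios of -3.40 and -3.42, and of -1.46 and -2.21 at matched depth.

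The promoters of mitotic genes carry letters that the tested genes at large mostly lack. Cell cycle genes are known to be controlled through E2F sites, CCAAT boxes and the cell cycle homology region (CHR). For the CHR the letters TTTGAA were searched, and CCAAT for the CCAAT box. For E2F the letters TTCCCGC were searched, and besides them the variant with TTCGCGC and the variant with TTGGCGC. All were searched on both strands of 300-base RefSeq promoters (GRCm38.p6, which is mm10), and E2F matches on opposite strands may overlap. Of the 52 G2 and M genes, 45 had a promoter in the table. Of these 66.7% held a CHR match, 75.6% a CCAAT match and 53.3% both, against 18.1%, 37.9% and 7.12% of all 27025 promoters. In the promoters of the tested genes the shares were 12.7%, 40.1% and 6.22%. E2F letters were found in 15.6% of the G2 and M promoters, 17.3% of those of tested genes and 8.21% of all. The S list had promoters for 31 of 43 genes, too few to give its shares. For nucleotide synthesis genes (16 of 18 matched) the E2F share was 31.2%, and that of CHR 6.25%. A match describes the letters only.

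The 150 bases before the start of 3 of these genes are shown with the matches in capitals, as examples picked from a larger set. In that set Nusap1 held no match, Ccnb1 and Ccnb2 held CCAAT boxes but no CHR letters, and Rrm2 held no E2F letters. Mcm5 and Cdc6 held E2F letters. Mcm6, a helicase subunit (359 and 346 CPM in cycling, 71.8 and 50.7 CPM in resting cells), holds E2F letters and CCAAT boxes read on the opposite strand as ATTGG. Cdk1 and Ube2c hold CHR letters and CCAAT boxes, Ube2c with the CHR read as TTCAAA, and Cdk1 also holds the E2F letters TTCGCGC.
Mcm6, chr1:128359706-128359855, minus strand: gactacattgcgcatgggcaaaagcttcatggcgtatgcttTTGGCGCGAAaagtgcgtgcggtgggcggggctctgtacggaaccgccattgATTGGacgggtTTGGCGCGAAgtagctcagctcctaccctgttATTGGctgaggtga
Cdk1, chr10:69352913-69353062, minus strand: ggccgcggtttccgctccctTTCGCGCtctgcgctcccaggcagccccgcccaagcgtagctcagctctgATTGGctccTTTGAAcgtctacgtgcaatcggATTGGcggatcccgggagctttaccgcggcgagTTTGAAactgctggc
Ube2c, chr2:164769779-164769928, plus strand: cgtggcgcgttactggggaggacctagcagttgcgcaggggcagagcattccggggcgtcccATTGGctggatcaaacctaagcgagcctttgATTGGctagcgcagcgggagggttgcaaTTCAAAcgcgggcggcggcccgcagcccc

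Genes of biosynthesis were higher, but only those of nucleotide synthesis partly kept this at matched depth. All 13 tested genes of nucleotide synthesis were higher, with a median log2 ratio of 2.87 and 2.68, and 6 of 12 were higher at matched depth (among them Dut, Rrm1, Rrm2, Tk1 and Tyms). Tyms, which makes thymidylate, stood at 351 and 349 CPM against 13.9 and 13.2 CPM. Of 9 ribosome biogenesis genes 6 were higher, among them the nucleolar gene Npm1 at 1695 and 1139 CPM against 601 and 489 CPM. At matched depth 0 of 8 were, and Npm1 had log2 ratios of 0.43 and -0.16. Of 8 glycolysis genes Gapdh and Pgam1 were higher, and at matched depth 0 of 8.

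Genes of the double-positive stage were lower in cycling cells, and this was not seen at matched depth. Of 14 tested genes 10 were lower (among them Cd4, Cd8b1, Rag2, Themis, Bcl2l1, Ets2, Aqp11, Satb1 and Rmnd5a) with a median log2 ratio of -1.43 and -1.40. At matched depth 0 of 14 were, with medians of -0.24 and -0.18. Cd4 stood at 48.4 and 104.0 CPM in cycling and at 356 and 501 CPM in resting cells. At matched depth Cd4 stood at 83.0 and 128 CPM against 199 and 242 CPM, a log2 ratio of -1.26 and -0.92, which was below 2-fold in FTOC. Rag2 stood at 54.6 and 82.1 CPM against 160.2 and 208 CPM, and at matched depth at 74.0 and 109 CPM against 101 and 102 CPM. Cd8a stood at 718 and 919.9 CPM against 1197 and 1720 CPM, and at matched depth at 1024 and 1270 CPM against 771 and 1164 CPM, so that the order of the groups turned.

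**Figure D3:**
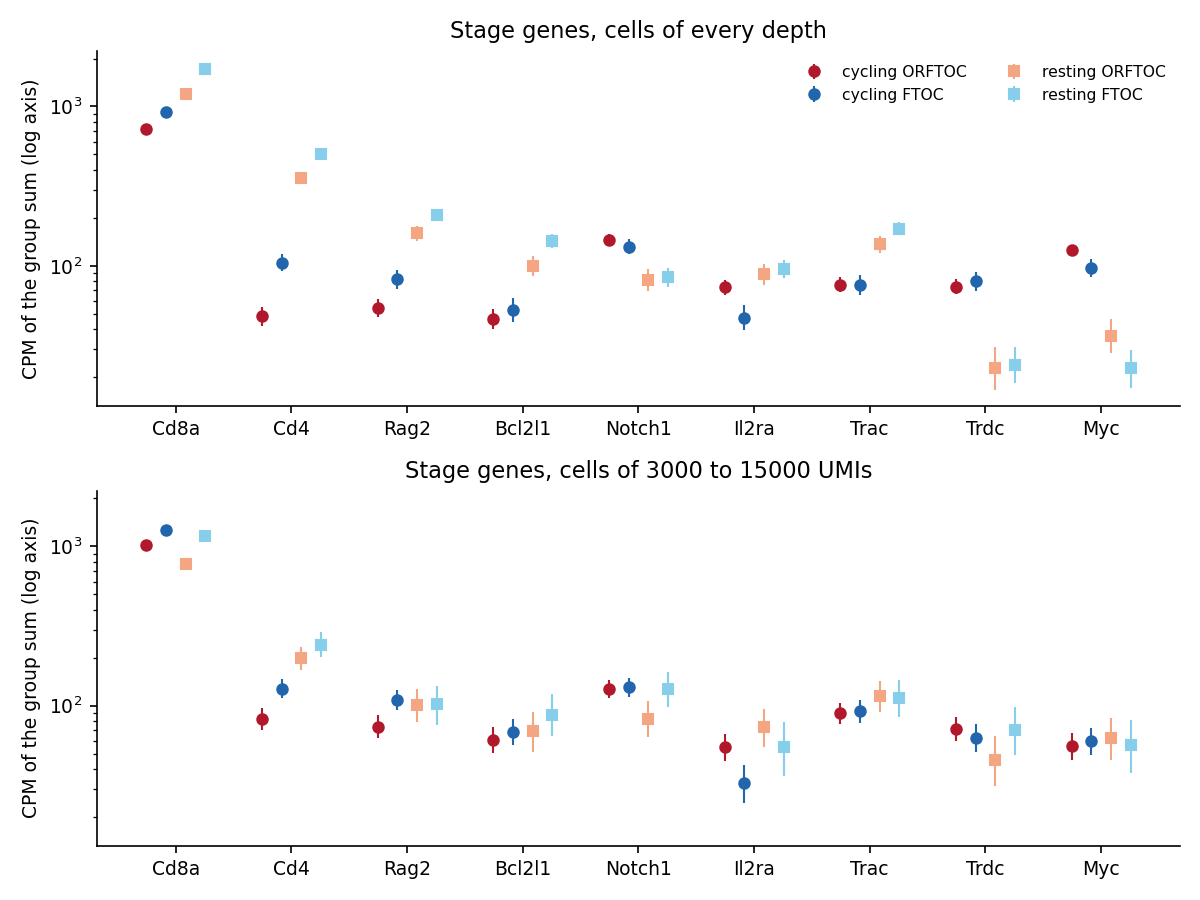
CPM (log axis) of 9 thymocyte genes in cycling and resting cells of each pool with 95% Poisson intervals, in cells of every depth (upper panel) and of 3000 to 15000 UMIs (lower panel). Cd4 and Rag2 lie lower in cycling cells in the upper panel, while in the lower panel Rag2 lies at 74.0 and 109 CPM beside 101 and 102 CPM.

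Tested genes before the double-positive stage were mostly similar in both groups. The 8 early progenitor genes were not tested, since none reached 50 CPM in both pools. They summed to 15.1 and 58.3 CPM in cycling cells and to 191 and 66.7 CPM in resting cells. Of 9 tested genes of Notch and pre-T cell receptor signalling, Myc was higher, at 125 and 97.3 CPM against 36.4 and 22.8 CPM, but at matched depth it stood at 55.5 and 59.9 CPM against 62.3 and 56.7 CPM and 0 of 10 were higher or lower. Il2ra, the interleukin 2 receptor chain of cells before β selection, was at 73.1 and 47.3 CPM against 88.4 and 95.4 CPM. At matched depth Il2ra was at 55.0 and 32.7 CPM against 73.3 and 54.8 CPM. Of the β selection list Cd27, Cd28 and Egr1 were lower out of 7, and at matched depth Egr1. Survival genes had Bcl2l1, Mcl1 and Trp53inp1 lower out of 6, and Bcl2 and Trp53inp1 at matched depth. Interferon genes had 0 of 6 called with all depths together and 4 of 6 lower at matched depth (among them Irf7, Isg15 and Rtp4). Of 4 stress genes Fos was lower with all depths together, and Fos, Ier2 and Junb at matched depth. Late maturation genes had Ccr9 and Itgb7 lower out of 4, and 5 of 7 at matched depth (Ccr7, Il7r, Itgb7, Ly6c2 and Ms4a4b). The resting cells at matched depth also held more macrophage transcripts, as given above, and the part of other cells in these differences was not tested.

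Read as cells, 56.7% of ORFTOC and 39.7% of FTOC cycling thymocytes held Cd8a transcripts without Cd4, while 35.3% and 53.8% held both and 7.43% and 5.73% held neither. Cd8a without Cd4 was thus the larger class in ORFTOC, and both together in FTOC. After 319 and 257 cells were thinned to 3000 UMIs the shares were 61.1% and 56.8% for Cd8a alone, 16.0% and 26.5% for both and 21.9% and 14.8% for neither. A missing transcript does not show a missing protein. After thinning to 1000 UMIs a Cd4 UMI was found in 8.36% and 14.5% of cycling cells and in 38.7% and 41.8% of resting cells. In cells of matched depth, without thinning, the shares were 42.2% and 56.9% against 61.0% and 72.2%.

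The T cell receptor library was independent of the rule. Of its 4649 barcodes 4119 were assigned cells, and 530 were cycling thymocytes. A productive TRB chain was found in 91.3% (87.7 to 94.2) of ORFTOC and 89.3% (84.9 to 92.8) of FTOC cycling cells, against 83.5% (80.4 to 86.3) and 86.8% (84.8 to 88.7) of resting cells. At matched depth it was 93.1% and 92.6% against 86.4% and 82.5%. In the cells with 3 Epcam UMIs, which should lack a receptor, the share was 7.45%, or 188 of 2523. Cycling cells with TRB held a median of 55 and 43 UMIs of it, resting cells 15 and 15.

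A productive TRA chain was less frequent. Cells with 1 TRB and 1 or 2 TRA chains made up 9.91% (6.88 to 13.7) of ORFTOC and 16.0% (11.8 to 21.0) of FTOC cycling cells, against 28.7% and 29.4% of resting cells. At matched depth the shares were 11.3% (7.28 to 16.4) and 17.1% (12.4 to 22.8) against 22.0% (14.9 to 30.6) and 15.5% (8.92 to 24.2). With all depths together the TRA share of cycling cells was thus lower in both pools. At matched depth it was lower in ORFTOC only, and in FTOC the order of the groups turned, with overlapping intervals in both pools.

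**Figure D4:**
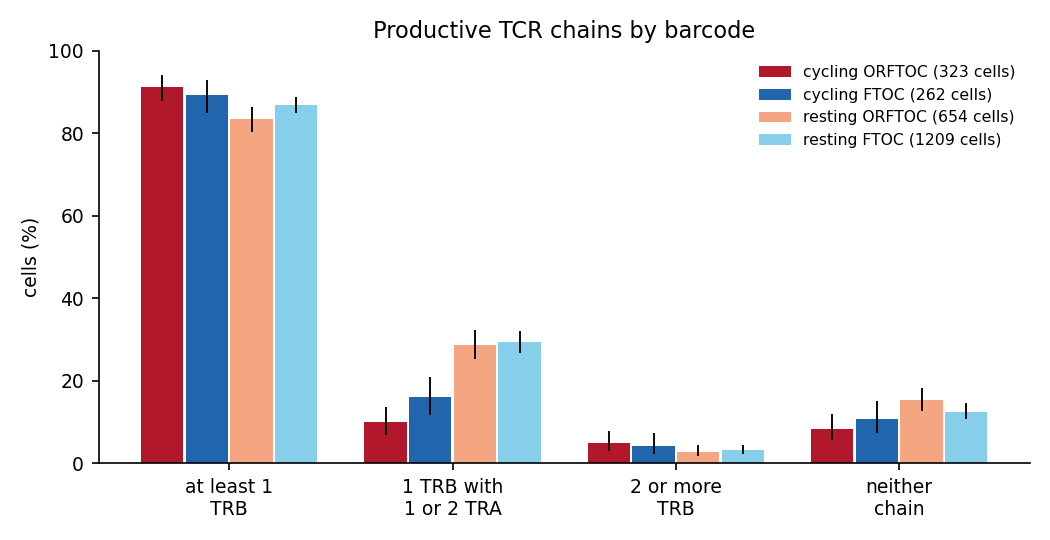
Percent of cycling and of resting cells of each pool (bars) with at least 1 productive TRB chain, with 1 TRB and 1 or 2 TRA chains, with 2 or more TRB chains, and with neither chain, with 95% Clopper-Pearson intervals. TRB stands at 91.3% and 89.3% in cycling cells, while TRB with TRA stands at 9.91% and 16.0%.

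The TRA chains that cycling cells did hold used J segments of high number more often. High-numbered TRAJ segments lie nearest to the V segments and are known to be joined early. The median TRAJ number was 39 in ORFTOC and 49 in FTOC cycling cells and 31 in resting cells of both pools. TRAJ40 or higher was used by 47.4% (27 of 57) and 71.9% (41 of 57) of the chains, against 26.8% and 30.2% in resting cells. The limit of TRAJ40 was chosen after the data had been seen.

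Cycling cells with a TRA chain also differed from those without in the summed level of Trdc, the δ constant gene. The Trd locus lies inside the Tra locus and is removed when a Tra V segment joins a J segment. In ORFTOC, Trdc stood at 33.1 CPM (16.5 to 59.3) in the 32 cells with TRB and TRA and at 84.2 CPM (74.6 to 94.7) in the 247 with TRB alone. In FTOC it stood at 22.1 CPM (9.54 to 43.6) in 42 cells and at 81.8 CPM (68.4 to 97.1) in 181. Summed Trdc was thus lower in the cells with TRA in both pools, but these intervals treat the UMIs of a cell as independent. A single cell without TRA held up to 17 of 280 Trdc UMIs in ORFTOC and 14 of 131 in FTOC. In ORFTOC 8 of 32 cells with TRA held Trdc (11.5 to 43.4%), against 106 of 247 without (36.7 to 49.3%). In FTOC 7 of 42 (6.97 to 31.4%) and 53 of 181 (22.8 to 36.5%) did. The intervals of these cell shares overlapped in both pools. The median depth was 7322 and 11816 UMIs in ORFTOC and 6961 and 7268 in FTOC. Cd4 stood higher in the cells with TRA, at 81.4 against 41.2 CPM in ORFTOC and at 149 against 90.0 CPM in FTOC. Cd69 had larger ratios, at 90.4 against 5.72 CPM and at 22.1 against 6.25 CPM. So did Ccr7, at 51.2 against 3.01 CPM and at 11.1 against 1.25 CPM. Few cells held them, since 1 ORFTOC cell held 25 of the 30 Cd69 UMIs. A Ccr7 UMI was found in 5 of 32 and 2 of 42 cells with TRA. Notch1 stood at 229 against 141 CPM and at 193 against 131 CPM. Cd5, a negative regulator of receptor signals, stood at 189.9 against 117 CPM and at 179.6 against 112 CPM. In ORFTOC 1 cell held 26 of the 63 Cd5 UMIs of the cells with TRA, and the share of cells with a Cd5 UMI was 46.9% against 47.0%. In FTOC 1 cell held 15 of 65 such UMIs, and the shares were 45.2% against 35.4%.

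Over all cycling cells Trdc was at 74.0 and 79.8 CPM and in resting cells at 23.0 and 24.0 CPM, 3.21-fold and 3.33-fold higher. At matched depth it was at 71.4 and 62.9 CPM against 45.7 and 70.4 CPM. Trdc was thus higher in cycling cells in ORFTOC only, below 2-fold and with overlapping intervals (59.8 to 84.5 against 31.4 to 64.1). In FTOC the order of the groups turned, also with overlapping intervals. The α constant gene Trac was at 76.0 and 75.8 CPM in cycling and at 137 and 171 CPM in resting cells. The gamma-delta markers summed to 232 and 207 CPM in cycling cells and to 236 and 134 CPM in resting cells. In the 27 and 28 cycling cells with no productive chain, Trdc stood at 56.9 and 99.7 CPM, beside 76.0 and 75.9 CPM in those with TRB.

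Cycling ORFTOC cells shared their TRB chains far more often than cycling FTOC cells. Of 279 ORFTOC cells with exactly 1 TRB chain, 54.1% (48.1 to 60.1) held a chain found in another cycling cell of the pool, against 10.8% (7.02 to 15.6) of 223 FTOC cells. ORFTOC had 183 distinct chains, of which 128 were found in 1 cell, 31 in 2, 14 in 3, 6 in 4, 1 in 5 and 3 in 6. FTOC had 211, of which 199 were found in 1 cell and 12 in 2. Drawing 223 chains from the ORFTOC cells is expected to give 49.0% repeated, so most of the gap remained at equal numbers. Among resting cells the share was 31.8% in ORFTOC and 8.40% in FTOC, and in 223 chains 17.1% and 2.12% are expected. Cycling cells of both pools thus repeated chains more often than resting cells of the same pool at equal numbers. At matched depth the share in ORFTOC cycling cells was 42.7%.

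**Figure D5:**
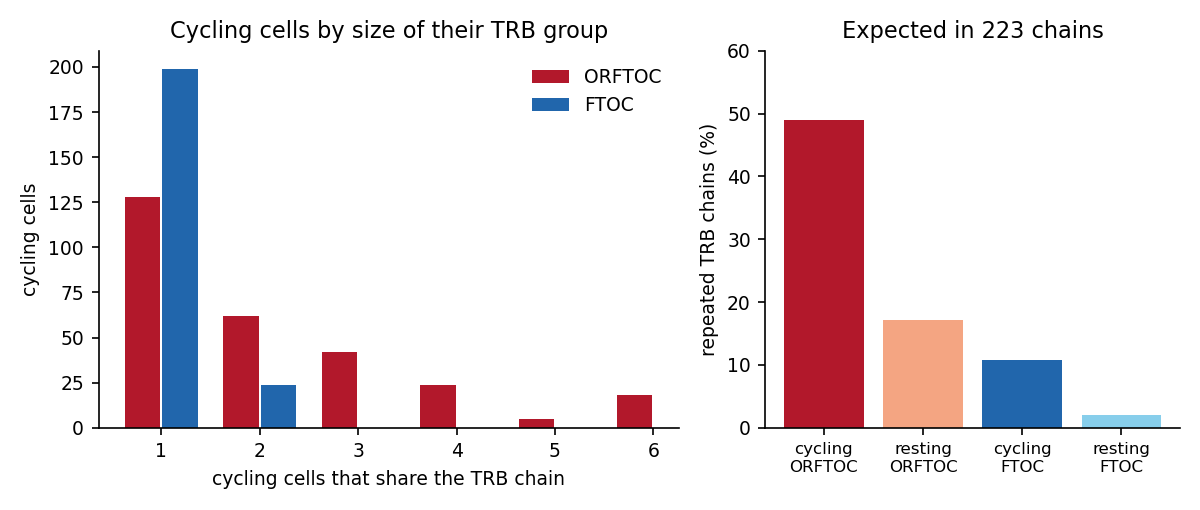
Left, cycling cells (vertical axis) by the number of cycling cells of the pool that shared their TRB chain (horizontal axis). Right, the percent of repeated chains expected in 223 chains of each group, 49.0% in cycling and 17.1% in resting ORFTOC cells against 10.8% and 2.12% in FTOC.

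The repeated chains went with other marks of origin. No chain was found in cycling cells of both pools (0 of 394), and 22 of 3237 were found in both pools among all assigned cells. In ORFTOC, 125 cycling cells held UMIs of Xist and none of 4 Y-linked genes, and 137 held the reverse. Among pairs of such cells that shared a TRB chain 92.1% (105 of 114) were of the same sex-linked class, against 49.9% of all pairs. Of 41 chains that could be scored, 39 lay in 1 class. In FTOC 252 of 262 cycling cells were of the Xist class and 0 of the Y class, so that this check could not be made there.

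Some chains joined cycling and resting cells of a pool. The TRBV30 chain printed above was found in 6 cycling and 6 resting ORFTOC cells, 17 assigned cells in all, of which 12 were of the Xist class and 0 of the Y class. None of its 6 cycling cells had a TRA chain. Among its resting cells 2 had TRA chains, which differed from each other, and a further TRA chain was found in another cell of the clone.
TRAV13-2 TRAJ47: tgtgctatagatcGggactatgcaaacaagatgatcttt
TRAV14-3 TRAJ42: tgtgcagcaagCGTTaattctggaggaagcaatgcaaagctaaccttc
TRAV14-2 TRAJ31: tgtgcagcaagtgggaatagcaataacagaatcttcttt
The same β junction was thus paired with 3 α junctions, each in its own cell. Of the other ORFTOC chains printed above, TRBV3 was found in 6 cycling and 1 resting cell and TRBV2 in 6 cycling cells, with no TRA chain in any cycling cell. The TRBV3 chain was an exception to the single class, with 2 assigned cells of the Xist class and 6 of the Y class, so that a single clone was not shown for it.

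In all, 53 ORFTOC chains lay in both groups, in 84 cycling and 86 resting cells. Within these clones a TRA chain was found in 13.1% (6.72 to 22.2) of the cycling and 30.2% (20.8 to 41.1) of the resting cells. Cd4 stood at 41.9 CPM in the cycling and 309 CPM in the resting cells of these clones, and Trdc at 58.9 and 33.9 CPM. Neither here nor in FTOC were the cells of shared clones matched for depth, and the part of depth was not tested. In FTOC 18 chains lay in both groups, in 20 cycling and 20 resting cells, of which 6 and 8 had a TRA chain. Cd4 was at 241 and 389.6 CPM there. The FTOC TRBV2 chain was an example, with 2 cycling and 2 resting cells. Of these, 1 cycling cell held a TRA chain and 1 resting cell held 2 others.
FTOC cycling, TRAV21-DV12 TRAJ58: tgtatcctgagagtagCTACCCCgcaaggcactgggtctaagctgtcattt
FTOC resting, TRAV14N-2 TRAJ34: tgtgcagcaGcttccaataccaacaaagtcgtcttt
FTOC resting, TRAV16N TRAJ21: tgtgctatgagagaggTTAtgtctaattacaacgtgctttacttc

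Between the pools, cycling cells differed in few genes. Of 3296 genes of at least 50 CPM in the higher pool, 3 (0.091%) were at least 2-fold higher in ORFTOC and 42 (1.27%) at least 2-fold lower. The higher ones were Pdlim4, which binds actin (153 against 62.9 CPM, 2.43-fold, 2.05 to 2.91), the matrix gene Fbln2 (58.0 against 23.5 CPM) and the class I gene H2-Q2 (104 against 48.9 CPM). H2-Q2 has close relatives, and reads may be split among them. In cells with Xist and no Y-linked UMI the log2 ratio of Pdlim4 was 0.92, and that of H2-Q2 at matched depth was 0.75, both below 2-fold.

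Among the genes lower in ORFTOC were C1qa, Apoe and Lyz2, which macrophages express, and few cells carried them. C1qa stood at 21.5 against 179.8 CPM, Apoe at 35.8 against 416 CPM and Lyz2 at 146 against 570.4 CPM. Of 4684 UMIs of 12 macrophage genes in FTOC, 17 cells with more than 3 UMIs held 97.4%, and 156 of 262 cells held none. In ORFTOC 20 cells held 89.9% of 1466 UMIs, and 195 of 323 held none. A TRB chain was found in 13 of the 17 and 16 of the 20 cells. Without these cells, a choice made after the data had been seen, 8 genes were lower in ORFTOC, 5 of them among the 42 (Gbp4, Cd4, Gm42047, Ly6c2 and Xist), and 4 were higher. Cd4 was then at 46.6 against 109 CPM, beside 48.4 against 104.0 CPM in all cycling cells, and its log2 ratio at matched depth was -0.63. Xist was at 251 against 749 CPM beside the sex-linked classes given above. Of the fixed lists, no member of the S, G2 and M, cyclin, Notch or receptor lists passed 2-fold between the pools. The 6 tested genes of the interferon list stayed under 2-fold too, with a median log2 ratio of -0.68. Isg15 was at 117 against 216 CPM and Irf7 at 39.0 against 76.6 CPM. This covers that list only, and Gbp4, which is not on it, had a log2 ratio of -1.09.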

How the data were processed

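Gene expression, T cell receptor and hashtag libraries came from 1 lane of 10x 5′ v2 chemistry. Per their methods, the authors aligned reads to mm10 with Cell Ranger 6.1.2, while the matrix header names Cell Ranger 4. Whether the counts depend on this was not tested. The deposited matrix held raw UMI counts of 705161 barcodes (103984163 UMIs), and the deposited contig lists gave UMI counts per contig.

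Cells had at least 600 genes, 0.4 to 10% mitochondrial UMIs and at least 80% of 10 or more hashtag UMIs in 1 row, which left out 896 barcodes with mixed hashtags. Doublets within a pool were left in the main values, and removing 922 was an alternative. UMIs were summed per pool and group. Ratios used at least 3 UMIs per group, with exact intervals (Poisson for levels and their ratios, Clopper-Pearson for shares, 95%). The depth per cell is given in the text. A called gene passed 2-fold. Named were genes of the lists and the 8 largest and 8 smallest ratios at 100 CPM or more, without the genes of the rule and receptor segments, and the 3 most frequent TRB chains of each pool (ties went to the chain in more assigned cells). Chains were the same with equal V, J and junction bases. Members, lists and the matched depth were chosen with earlier results of these data known. Scripts were tested on simulated data. Python 3.11.15, numpy 2.4.6, scipy 1.17.1, pandas 2.3.3, R 4.3.3 and Seurat 5.3.0 were used. Some items are not reported here.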

Additional observations from a re-analysis of the deposited data

Results flagged for a closer look

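The receptor comparisons did not use contigs of the δ locus or contigs marked as not productive, and both were found in cycling cells. Contigs of the δ locus (TRD) were found in 4.95% (2.86 to 7.92) of ORFTOC and 7.63% (4.72 to 11.5) of FTOC cycling cells, against 1.07% and 1.32% of resting cells. None of them was productive, and all of these cells had a productive TRB chain. Of the 37 contigs 24 used TRDV1 and 10 TRDV2-2, and in 14 and 18 cells the V segment was joined to a TRAJ segment, most often TRAJ58 (13 contigs). Cycling cells were deeper than resting cells, and the part of depth in this was not tested.

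TRB contigs marked as not productive were found in 26.6% of ORFTOC and 24.8% of FTOC cycling cells, against 19.9% and 18.8% of resting cells. TRA contigs marked as not productive were found in 14.6% and 21.0% of cycling cells, against 27.2% and 34.2% of resting cells.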

How the results depend on the processing

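Over 16 other settings, 146 of 172 values of the main comparisons stayed within their interval or within 1.5 times the count, and 26 moved. The shares with TRB, with TRB and TRA, and with more S than G2 and M transcripts stayed so in all of those run. The cycling share of immature cells was 27.7% in ORFTOC with a gate of 5 cycling UMIs, 36.4% and 19.5% with an immature gate of 4, 39.9% and 24.1% with at least 1000 genes, 36.3% and 22.8% in cells with Xist and no Y-linked UMI, 58.1% and 60.7% at 3000 to 15000 UMIs, and 19.3% and 13.2% with gates of 1 UMI on cells thinned to 1000 UMIs. The repeated TRB share of ORFTOC cycling cells was 42.7% at 3000 to 15000 UMIs, also 42.7% at equal numbers of chains, and that of FTOC at equal numbers 5.21% in Xist cells.

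A floor of 10 CPM gave 645 genes higher and 1130 lower in cycling cells, and 22 higher and 290 lower in ORFTOC. At 3000 to 15000 UMIs 200 genes were lower in cycling cells, and 5 were higher and 3 lower in ORFTOC, where the log2 ratio of Fcer1g over FTOC reversed to 2.18. Without cells holding any of 7 markers of other lineages 5 genes were higher and 11 lower in ORFTOC. Lower in ORFTOC were 27 in Xist cells, 10 with equal weight per cell and 8 without cells of more than 3 macrophage UMIs. Of 598 values of named genes 497 stayed, 100 moved and 1 reversed. The causes were not tested. Each pool was 1 sample, so the spread between cultures is unknown. No paired analysis was possible because the result comes from no test and each pool has 1 sample.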

Other observations

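Genes of DNA end joining, which repairs the breaks that Rag1 and Rag2 make, were tested as a list of 3. Dclre1c, which opens the hairpins at coding ends, stood at 19.4 and 23.8 CPM in cycling cells against 51.4 and 86.7 CPM in resting cells and was the only one at least 2-fold lower. Lig4, the ligase of this pathway, stood at 42.2 and 45.0 CPM against 75.5 and 96.6 CPM. At matched depth 0 of 2 tested members were lower.

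Among chemokine receptor and receptor complex genes, Ccr9, the receptor for Ccl25, stood at 173 and 308 CPM in cycling and at 547 and 831 CPM in resting cells. At matched depth it stood at 251 and 394 CPM against 383 and 567 CPM, below 2-fold. Cd247, the ζ chain, stood at 184 and 258 CPM against 517 and 718 CPM, and was the only one of 7 CD3 complex genes that was lower, with 0 of 7 at matched depth. TRBJ2 segments were used by 59.5% and 58.0% of the TRB chains of cycling cells and by 53.4% and 54.3% of those of resting cells.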
